A study of Astyanax mexicanus with 36 samples.

Results

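The nuclear genes of respiratory complexes II to V were followed in growing oocytes of the Mexican tetra, Astyanax mexicanus. Members were taken by name: 54 genes of the count table have a symbol beginning with sdha, sdhb, sdhc, sdhd, uqcr, cox4 to cox8 or atp5, or the symbol cyc1, and 53 of them are also in the deposited normalised table. Of the 27420 genes of the count table, 18259 are in the normalised one. The gene left out, cox5b2, had 54 reads in all, spread over 18 libraries. The 53 members are 4 subunits of complex II, 3 complex II assembly factors whose symbols the rule also catches, 11 subunits of complex III, 19 of complex IV, 5 of the F1 head of complex V and 11 of its membrane part, stalks and accessory proteins.

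The study compared oocytes of cave fish from Pachón, cave fish from Molino and surface fish. RNA was taken from oocytes of the right ovary, sorted into 4 size categories named 40um, 40_100um, 100_300um and 300um, and every group of population and size has 3 libraries, which makes 12 groups and 36 libraries. All fish were wild type, not treated and about 520 days past fertilization. Whether 40um and 300um are bounds is not stated in the labels, nor whether the 3 libraries of a group came from separate fish, so the p-values measure the spread between these libraries, which may be technical.

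Complex II (succinate dehydrogenase) oxidises succinate in the citric acid cycle and passes the electrons to ubiquinone, complex III hands them to cytochrome c, and complex IV (cytochrome c oxidase) delivers them to oxygen. Complexes III and IV pump protons out of the matrix as they do so, and complex V (ATP synthase) makes ATP as protons flow back through its membrane ring and turn the stalk inside its F1 head. Animal oocytes amass mitochondria and maternal transcripts while they grow, and several complex IV subunits exist as isoforms that replace each other by tissue or oxygen supply.

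Libraries held 2992119 to 9345334 reads assigned to genes. At 40um a mean of 36.4% of reads was assigned, against 56.9% over all 36 libraries. The spread between replicates was largest there (common dispersion 0.246, against 0.0509, 0.0691 and 0.0527 at 40_100um, 100_300um and 300um). Size steps and interactions were tested in 1 fit of all 36 libraries, with a common dispersion of 0.129. That may understate the spread in contrasts with 40um and overstate it between the larger sizes. Few or no calls between the larger sizes therefore do not show that levels were alike. All 7 oocyte markers (such as gdf9, bmp15 and zar1) had reads in every library, with a sum of 939 to 10187 CPM (CPM is the read count scaled to the library size) at 40um and 2847 to 6509 CPM at 40_100um. The 38 marker genes of granulosa, theca, blood, endothelial, stromal and muscle cells together reached 926 to 3525 CPM at 40um, 42.3 to 271 CPM at 40_100um, 98.2 to 515 CPM at 100_300um and 161 to 612 CPM at 300um. Of those 38 genes, 1 to 5 were at 0 in a library of 40um, 5 to 17 at 40_100um, and 4 to 11 at 100_300um and at 300um. Library names form 3 numbered series, 1 for 300um, 1 for both middle sizes and 1 for 40um. A contrast between sizes that involves 40um or 300um is therefore also a contrast of series, and oocyte size and series cannot be told apart there. Populations compared within a size lie in the same series. In such bulk samples fewer cells of a type and less RNA per cell cannot be told apart either. Levels are TMM-scaled CPM and are compared between libraries for the same gene, not between genes.

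Summed over the 53 members, transcripts stood highest at 40_100um in both cave populations. The sum was 7739 ± 3186 CPM in Pachón, 6535 ± 1432 in Molino and 7268 ± 1923 in surface oocytes at 40um (mean ± SD, n = 3 each here and in the next sentences). At 40_100um it was 11267 ± 2206 CPM in Pachón, 9798 ± 967 in Molino and 6933 ± 216 in surface oocytes. At 100_300um it was 6817 ± 339, 5970 ± 233 and 5523 ± 611 CPM in Pachón, Molino and surface oocytes, and at 300um 7859 ± 942, 5319 ± 381 and 5076 ± 452 CPM. Much of the sum came from atp5fa1 and atp5f1b of the F1 head, which averaged 2691 and 2254 CPM over the 9 libraries of 40_100um. All 5 genes of the head summed to 6618 ± 1398 CPM in Pachón, 5814 ± 495 in Molino and 3490 ± 172 in surface oocytes there. At 300um these 5 genes summed to 4254 ± 621 CPM in Pachón, 2655 ± 299 in Molino and 2382 ± 327 in surface oocytes. The 19 complex IV genes summed to 1223 ± 93.0 CPM in Pachón, 882 ± 60.7 in Molino and 814 ± 23.6 in surface oocytes at that size. The 11 complex III genes summed to 929 ± 83.0, 743 ± 29.6 and 807 ± 63.2 CPM there, and the 4 complex II genes to 274 ± 23.6, 225 ± 19.4 and 254 ± 16.0 CPM. Pachón libraries of 300um lay above every surface library of that size in the F1, complex IV and total sums.

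**Figure D1:**
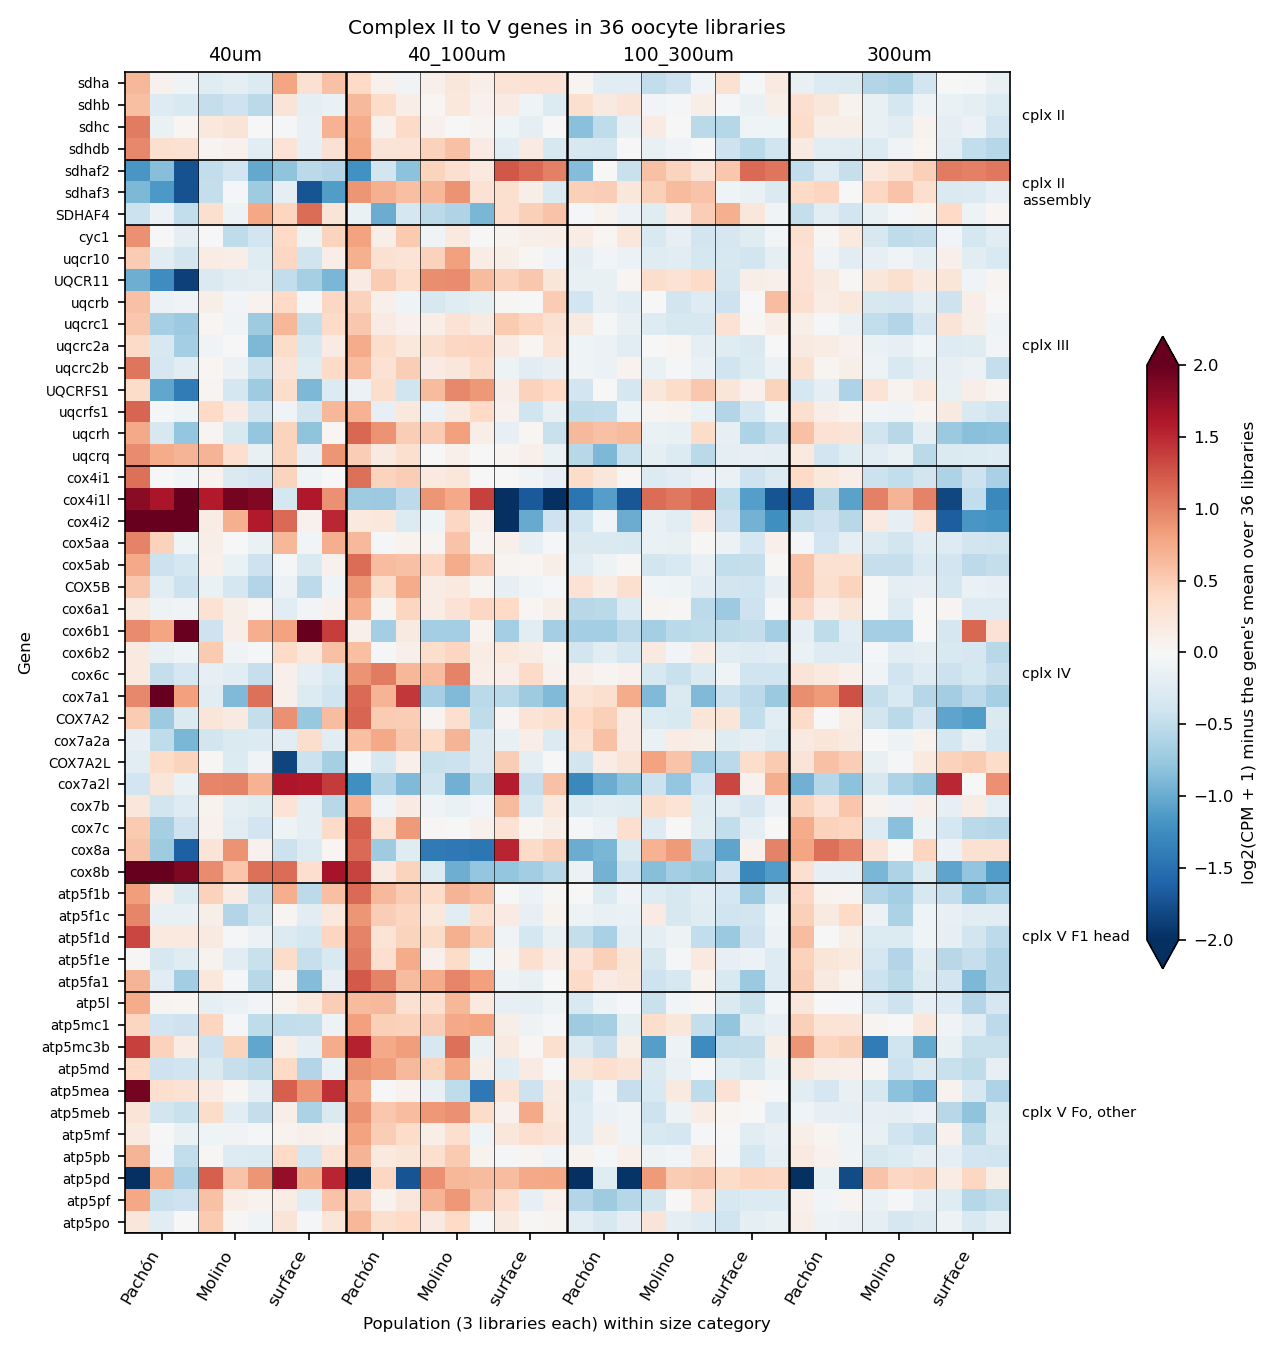
Level of each of the 53 member genes (rows, ordered by complex) in each of the 36 libraries (columns, by size and then population), as log2(CPM + 1) minus the gene's own mean over all libraries, with the colour scale clipped at 2 either way. Many rows are red at 40_100um and blue at the larger sizes, while cox4i1l, cox4i2, cox6b1 and cox8b are red at 40um.

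**Figure D2:**
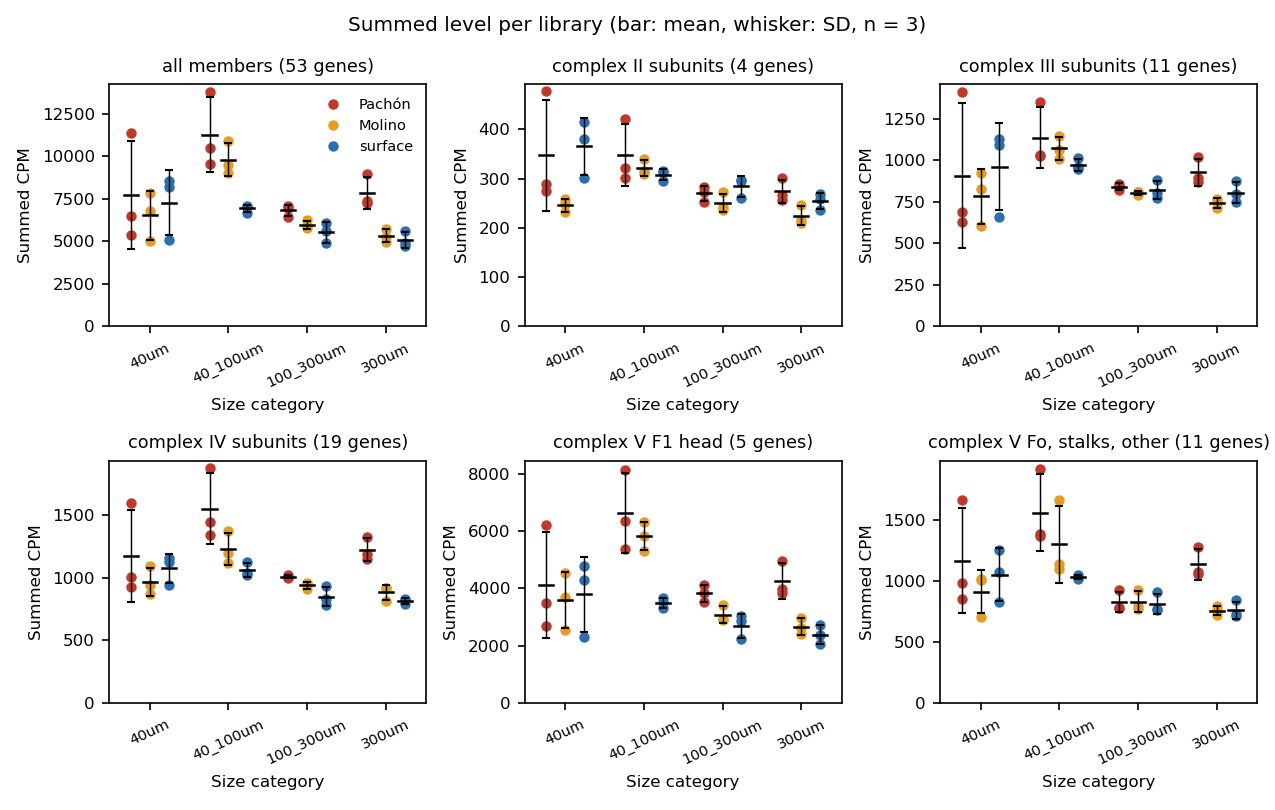
Summed level in CPM of all members and of each class (panels) per library (points) with the mean and SD of 3 libraries (bars) by size and population. At 300um the Pachón libraries lie above all surface libraries for the F1 head (means 4254 against 2382 CPM), and at 40um the 3 populations overlap in the sum over all members.

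Between 40um and 40_100um oocytes the members split by gene. Averaged over the populations, 21 of 53 were higher at 40_100um, where 29.8% of all 18259 tested genes were higher, and 9 were lower, where 43.8% of all genes were lower (edgeR quasi-likelihood test with Benjamini-Hochberg adjustment over all genes, threshold 0.05, used for every adjusted p of a single gene here). The median log2 fold change of the members was 0.18, against -0.32 for all genes, and it was positive under every scaling tried. The split was 15 higher and 10 lower with DESeq2 size factors, which move the median of all genes by -0.15, and 28 higher and 7 lower without the 50 most abundant genes, which moves it by 0.15. The count of higher members was 37 without Pachón 40um replicate 1, 33 without surface 40um replicate 3 and 32 without Molino 40_100um replicate 3. Of the higher members, 18 kept their call whichever of the 18 libraries was left out, and of the lower ones 6 did: cox4i1l, cox4i2, cox6b1, cox8b, cox7a2l and atp5mea. Cox6b1 did not pass the filter on low counts in the fits of 40_100um, 100_300um or 300um alone, so its call is a description. By population, the mean level was higher at 40_100um for 37 of 53 members in Pachón and 38 in Molino, against 21 in surface oocytes. That difference between populations was not tested. Such counts are not given over all genes, so they are a description.

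In complex II, 2 of the 3 assembly factors were higher at 40_100um and 1 was lower. Sdhaf3, which helps the iron-sulfur subunit mature, averaged 32.6 ± 8.36 CPM at 40_100um and 12.7 ± 5.67 CPM at 40um (SD, n = 9 each), a log2 fold change of 1.36 ± 0.16 (SE, adjusted p = 1.94e-08). Sdhaf2, which puts the FAD cofactor into the flavoprotein, changed by 1.13 ± 0.15 (adjusted p = 1.56e-07). SDHAF4, a chaperone of the flavinated subunit, fell by 0.51 on the log2 scale (adjusted p = 0.0168). Of the 4 subunits only sdhb, the iron-sulfur protein, was called, with a log2 fold change of 0.29, and that call was lost with DESeq2 size factors (0.14, adjusted p = 0.178). The flavoprotein sdha averaged 169 ± 16.3 CPM at 40_100um and 173 ± 51.4 CPM at 40um, and the membrane anchors sdhc and sdhdb did not pass the test (-0.15 and 0.02).

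In complex III, 6 of 11 members were higher and 1 lower. UQCR11, a small subunit, was the only member whose libraries of both sizes did not overlap, with 40_100um wholly above, as for 7.42% of all genes tested. It averaged 65.1 ± 13.01 CPM at 40_100um and 27.2 ± 9.45 CPM at 40um (log2 fold change 1.31 ± 0.11, adjusted p = 1.28e-11). The core protein gene uqcrc2a changed by 0.44 and uqcrc1 by 0.34, the second of which lost its call with DESeq2 size factors (0.21, adjusted p = 0.126). UQCRFS1, annotated as the Rieske iron-sulfur protein, changed by 0.71 ± 0.18 (adjusted p = 0.001), and its second copy uqcrfs1 had a log2 fold change of -0.13 that did not pass. Reads of such copies could be split between them by the counting, so each is uncertain on its own. The heme protein cyc1 (cytochrome c1) was not called (0.12), and uqcrq was lower by 0.41.

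Complex IV held most of the genes that fell. In this class 6 members were higher and 6 lower, and each of the 6 lower ones has another copy or isoform of its subunit among the members. The cox4i1-like gene cox4i1l averaged 2.92 ± 3.35 CPM at 40_100um and 11.04 ± 4.38 CPM at 40um (log2 fold change -3.31 ± 0.43, adjusted p = 8.30e-08). This average covers populations that were unlike. Surface libraries had 13, 42 and 33 reads of cox4i1l at 40um and 0, 2 and 0 at 40_100um. Pachón libraries had 50, 26 and 45, then 10, 8 and 11. Molino libraries had 57, 56 and 41, then 39, 38 and 68. Cox4i2, whose mammalian counterpart is the isoform of subunit 4 used at low oxygen, averaged 5.77 ± 2.67 CPM at 40_100um and 22.3 ± 13.6 CPM at 40um (-1.90 ± 0.26, adjusted p = 1.52e-07). The main isoform cox4i1 averaged 160 ± 50.6 CPM at 40_100um and 146 ± 55.0 CPM at 40um and was not called (0.12). Cox8b, a subunit 8 isoform of heart and muscle in mammals, averaged 6.19 ± 4.79 CPM at 40_100um and 24.4 ± 18.6 CPM at 40um (-1.95 ± 0.23, adjusted p = 1.33e-08). Cox6b1, cox7a1 (the heart and muscle isoform of subunit 7a in mammals) and cox7a2l fell by 3.22, 1.83 and 1.21 on the log2 scale. Cox6b1 and cox7a1 had few reads at 40_100um, with means of 0.286 and 1.08 CPM. Cox6b1 did not pass the filter on low counts in the fit of 40_100um alone, so its fall is a description.

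Among the complex IV genes that rose, cox6c averaged 170 ± 45.0 CPM at 40_100um and 98.7 ± 16.7 CPM at 40um (0.76 ± 0.11, adjusted p = 2.79e-07). Cox7a2a (0.57), cox5ab (0.51), COX5B (0.42), cox7c (0.41) and cox6a1 (0.27) rose as well, and cox6a1 lost its call with DESeq2 size factors (0.11, adjusted p = 0.363). Cox5aa, the second copy of subunit 5a, was not called (-0.18).

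In complex V, 2 of the 5 F1 genes and 4 of the 11 others were higher and 1 was lower. The head subunit alpha, atp5fa1, averaged 2691 ± 892 CPM at 40_100um and 1589 ± 551 CPM at 40um (0.69 ± 0.15, adjusted p = 0.000175), while the beta subunit atp5f1b did not pass (0.18). Subunit e of the membrane part is encoded by a pair of copies that moved apart: atp5meb rose by 0.76 and atp5mea was lower by 0.97. The ring subunit gene atp5mc1 rose by 0.56, and atp5po, the OSCP protein that joins the head to the outer stalk, did not pass (0.14).

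Copies of 1 subunit were also compared as ratios within a library, in which the scaling cancels except through the prior count, a small number added to each read count. Over 12 pairs of copies and 3 steps of size, 36 exact two-sided permutation tests of 9 against 9 libraries were made on the log2 ratio, with Benjamini-Hochberg adjustment over all 36. The ratio of cox4i2 to cox4i1 averaged -4.89 ± 0.88 at 40_100um and -2.88 ± 0.91 at 40um (mean log2 ratio ± SD, n = 9 each), a difference of -2.01 (exact permutation test, adjusted p = 0.0037). The ratio of cox4i1l to cox4i1 differed by -2.73 (adjusted p = 0.0148), that of cox6b1 to cox6b2 by -2.35 (adjusted p = 0.00777) and that of atp5mea to atp5meb by -1.68 (adjusted p = 0.00395), all exact permutation tests. In each of these pairs the copy named first stood lower against its partner at 40_100um than at 40um. For cox4i1l to cox4i1 the mean log2 ratio was -4.63 at 40um and -8.41 at 40_100um in surface libraries, where reads were few. It was -3.58 and -6.83 in Pachón and -3.14 and -4.30 in Molino. That difference between populations was not tested.

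The copies of subunit 5a and of 2 complex III subunits also shifted. The ratio of cox5aa to cox5ab averaged -0.83 ± 0.22 at 40_100um and -0.13 ± 0.29 at 40um, a difference of -0.70 (exact permutation test, adjusted p = 0.00296). It returned in part at 100_300um (-0.44 ± 0.22, a difference of 0.38 from 40_100um, exact permutation test, adjusted p = 0.0173). The ratio of UQCRFS1 to uqcrfs1 differed by 0.90 (adjusted p = 0.0322) and that of uqcrc2a to uqcrc2b by 0.34 (adjusted p = 0.0423) between 40_100um and 40um, by the same exact permutation test. One of the 12 ratios changed from 100_300um to 300um, cox6b1 to cox6b2 (1.03, adjusted p = 0.0423, exact permutation test), and with a prior count of 0.5 in place of 2 it no longer passed (1.67, adjusted p = 0.0684). The pairs cox7a1 to cox7a2a, COX7A2 to cox7a2a, COX7A2L to cox7a2l, cox8a to cox8b and atp5mc1 to atp5mc3b passed at no step in these unpaired tests.

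The ratios were also tested on the 9 differences between libraries of the same population and replicate number, in an exact two-sided permutation test over their signs for the first and last step. All 8 calls at these steps were kept in it. Passing in addition at 40_100um over 40um were COX7A2L to cox7a2l (1.44, higher in 9 of 9 pairs, adjusted p = 0.0156 against 0.0599 unpaired), cox7a1 to cox7a2a (-1.44, higher in 0 of 9) and atp5mc1 to atp5mc3b (0.30, higher in 8 of 9). At 300um over 100_300um cox5aa to cox5ab (-0.18, higher in 2 of 9) and atp5mc1 to atp5mc3b (0.14, higher in 8 of 9) passed. These paired tests were chosen after the data had been seen.

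Markers of other cell types moved with the same step. Of the 38, 32 could be tested, 29 were lower at 40_100um and the others did not pass, with the sums given above. Their part in the lower levels of cox4i2, cox4i1l, cox8b, cox7a1 and cox6b1 at 40_100um was not tested. All 6 tested granulosa markers were among those that fell, with a median log2 fold change of -5.66, and so were all 6 tested macrophage and granulocyte markers (-9.09).

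**Figure D3:**
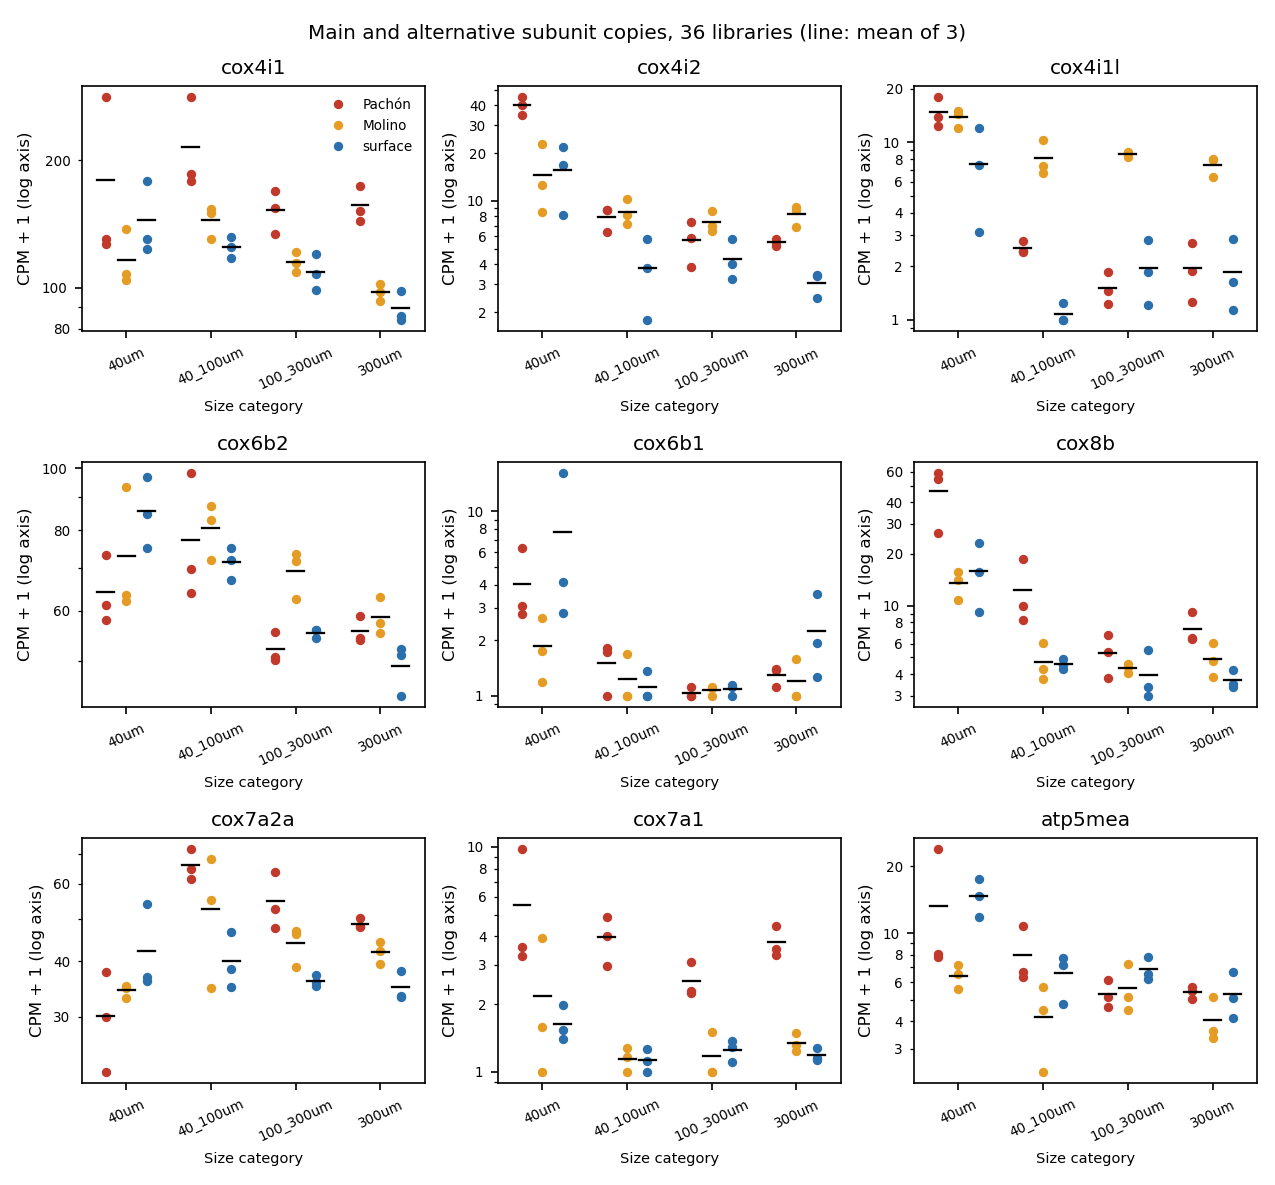
CPM + 1 on a log axis for copies and isoforms of complex IV and V subunits (panels) in each library (points), by size category and population. Cox4i2 and cox8b are highest at 40um (means 22.3 and 24.4 CPM) in all 3 populations, while cox4i1l stays above 5 CPM past 40um in Molino oocytes.

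Genes that build or feed the complexes were also counted over that step. Of 31 tested assembly factors of complexes II to V outside the members, 23 were higher at 40_100um and the others did not pass, with a median log2 fold change of 0.85. Lyrm7, which delivers the Rieske protein to complex III, had a log2 fold change of 1.71 ± 0.20 (adjusted p = 1.58e-08), sco1, a copper chaperone of complex IV, 1.12 ± 0.14 (adjusted p = 4.50e-08), and atpaf2, which assembles the F1 head, 1.39 ± 0.17 (adjusted p = 3.31e-08). Of 16 genes for cytochrome c and ubiquinone, 10 were higher and 1 lower. Cytochrome c, cycsb, changed by 0.67 ± 0.19 and the methyltransferase coq3 by 1.31 ± 0.12. Of 21 regulators, 14 were higher and 2 lower: tfam, which packages mitochondrial DNA, changed by 0.98 ± 0.16 and the polymerase POLG by 1.46 ± 0.17, whereas the coactivator PPARGC1A and the receptor esrra, its partner, changed by -5.12 ± 0.76 and -1.09 ± 0.20. For comparison, 49 of 74 genes of the mitochondrial ribosome were higher and 15 of 47 genes of complex I were higher and 7 lower.

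From 40_100um to 100_300um the members fell. Averaged over populations, 30 of 53 were lower at 100_300um, where 8.37% of all genes were lower, and 0 were higher, where 24.6% of all genes were. One member was higher at an unadjusted p under 0.05 and DESeq2 called 0 higher. The median log2 fold change was -0.34 for the members and 0.19 for all genes. Whichever of the 18 libraries was left out, 21 of the 30 kept their call, among them 4 of the F1 genes but not atp5f1e. The mean level was lower at 100_300um for 50 of 53 members in Pachón, 43 in Molino and 46 in surface oocytes. These counts by population are a description, since they are not given over all genes. Library totals in place of TMM scaling move the median of all genes by 0.21. With them 13 members were lower, against 30 in the main fit, and 2 were higher (COX7A2L and SDHAF4). Among the calls lost were those of sdha, sdhc, cyc1, uqcrc2a, cox4i1, cox5aa, COX5B, cox8b and atp5po.

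The F1 head fell as a whole under TMM scaling, with all 5 genes called; with library totals 3 of the 5 were called and all 5 log2 fold changes stayed negative (-0.50 to -0.10). Atp5f1b averaged 1339 ± 181 CPM at 100_300um and 2254 ± 644 CPM at 40_100um (-0.72 ± 0.15, adjusted p = 0.000726), and atp5fa1 averaged 1605 ± 399 CPM at 100_300um and 2691 ± 892 CPM at 40_100um (-0.70 ± 0.15, adjusted p = 0.000797). The delta, gamma and epsilon subunits atp5f1d, atp5f1c and atp5f1e fell by 0.69, 0.43 and 0.32 on the log2 scale. In the membrane part and stalks 8 of 11 were lower. The ring gene atp5mc3b had the largest change of all members called (-0.94 ± 0.23, adjusted p = 0.00204), atp5meb changed by -0.72 ± 0.13 (adjusted p = 0.000162), atp5mc1 by -0.69 and atp5po by -0.44.

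In complex IV, 9 of 19 were lower. Cox6c averaged 100 ± 16.1 CPM at 100_300um and 170 ± 45.0 CPM at 40_100um (-0.76 ± 0.11, adjusted p = 6.82e-06), cox5ab changed by -0.70, cox6a1 by -0.62, cox8b by -0.60, cox4i1 by -0.34, cox5aa by -0.33 and COX5B by -0.29. In complex III 5 of 11 were lower, among them uqcrc2a (-0.46) and cyc1 (-0.34), while uqcrc1 (-0.35) did not pass. In complex II sdhdb (-0.51), sdhc (-0.40) and sdha (-0.29, adjusted p = 0.0213) fell, sdhb did not pass (-0.07), and none of the 3 assembly factors was called. The libraries of both sizes did not overlap for 3 members, uqcrc2a, uqcrq and cox5ab, with 100_300um wholly below, as for 0.707% of all genes tested.

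Complex I fell at that step as well, with 17 of 47 genes lower and 1 higher. Its median log2 fold change was -0.37, against -0.34 for the members and 0.19 for all genes. The mitochondrial ribosome had 13 of 74 genes lower and 3 higher (median -0.27). The assembly factors had 1 of 31 lower and 3 higher (median -0.08). Cytochrome c (cycsb) fell by 0.63 on the log2 scale. Of the 21 regulators 7 were higher, among them tfam (0.87 ± 0.15), the mitochondrial helicase twnk (1.55 ± 0.16) and esrra (1.14 ± 0.20), and 3 were lower. Of the markers of other cells 18 of 32 tested were higher and 1 lower at 100_300um, and of 7 oocyte markers 4 were lower and the others did not pass. Their part in the members' fall was not tested.

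Whether the populations differed in that fall was tested as an interaction. No member passed for Pachón against surface or Molino against surface in edgeR. Of all genes 0.011% passed for Pachón, in the lower direction and in either. For Molino 0 of all 18259 genes passed in either direction, so the lack of calls does not show that the members fell alike. At an unadjusted p under 0.05 there were 6 members for Pachón and 4 for Molino. DESeq2 called 0 for Pachón and 1, cox8a, for Molino, where it called 11 of all 18259 genes higher and 8 lower. From 100_300um to 300um 0 of 53 members were higher and 0 lower, where 0.197% and 0.203% of all genes were; 3 and 2 members had an unadjusted p under 0.05, and DESeq2 called 0 in either direction. The mean level was higher at 300um for 39 of 53 members in Pachón oocytes, against 11 in Molino and 18 in surface oocytes. That difference was not tested for this step. Like counts over all genes are not given, so these are a description.

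At 300um Pachón oocytes held more transcript of some members of every complex than surface oocytes. Of 52 tested members 31 were higher in Pachón than in surface oocytes, where 15.9% of all genes were higher, and 2 were lower, where 16.5% were. Cox6b1 did not pass the filter on low counts, and cox7a1, 1 of the 31, passed it through the Pachón libraries alone, as did cox4i1l through the Molino libraries. In 1 fit of all 36 libraries 11 members were higher and 2 lower. Shares of all genes are not given for population comparisons in that fit. Its counts, here and in every population comparison below, are therefore a description. The median log2 fold change was 0.42, against -0.03 for all genes. Pachón libraries lay wholly above surface libraries for 34 members, including all 31 called, and wholly below for 6, as for 22.3% and 21.9% of all genes tested. With library totals 23 members were higher and 4 lower and the median of all genes moved by -0.12. Without Pachón 300um replicate 1 there were 13 higher and 2 lower, and without the libraries with raised markers of other cells 18 higher and 2 lower. Both lower members, sdhaf2 and cox7a2l, and 13 of the higher ones kept their call whichever of the 6 libraries was left out: atp5fa1, atp5f1b, atp5f1e, atp5mc1, cox4i1, cox5ab, COX5B, cox6c, cox7a1, cox7a2a, cox7b, cox7c and uqcrh. For cox7a1 this is a description, given how it passed the filter.

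All 5 genes of the F1 head were higher in Pachón. Atp5fa1 had 2399, 1943 and 1803 CPM in Pachón and 1267, 1175 and 1412 CPM in Molino libraries, against 1312, 922 and 1133 CPM in surface libraries; its log2 fold change of Pachón over surface was 0.87 ± 0.17 (adjusted p = 0.00314). Atp5f1b had 2153, 1703 and 1675 CPM in Pachón, against 1163, 916 and 1003 CPM in surface libraries (0.85 ± 0.15, adjusted p = 0.00238). Atp5f1e, atp5f1d and atp5f1c changed by 0.87, 0.63 and 0.57. The Pachón libraries of these genes lay above all surface libraries. The head kept 5 of 5 calls with library totals, 4 of 5 without the libraries with raised markers and 3 of 5 in 1 fit of all 36 libraries. Of the other complex V genes 6 of 11 were higher, among them atp5mc3b (0.95) and atp5mc1 (0.61), while atp5po did not pass (0.17).

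Of 18 tested complex IV genes 13 were higher and 1 lower. Cox4i1 had 173, 151 and 143 CPM in Pachón libraries, against 84.7, 97.4 and 82.9 CPM in surface libraries (0.82 ± 0.10, adjusted p = 0.000264). COX5B had 270.2, 226 and 245 CPM in Pachón, against 141, 164 and 161 CPM in surface libraries (0.68 ± 0.11, adjusted p = 0.00117). Cox7c, a small subunit, had 63.3, 51.8 and 50.7 CPM in Pachón, against 29.0, 25.4 and 24.8 CPM in surface libraries (1.07 ± 0.19, adjusted p = 0.00201). No Pachón library of these 3 genes overlapped the surface libraries. Cox5ab (0.87), cox8b (1.24), cox4i2 (1.13), cox8a (1.01), COX7A2 (1.03), cox7a2a (0.50) and cox6a1 (0.42) were higher as well, while cox5aa did not pass (0.16).

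Complex III was led by uqcrh, the hinge protein that binds cytochrome c1, which had 80.4, 65.3 and 64.3 CPM in Pachón libraries, against 31.5, 29.4 and 29.8 CPM in surface libraries (1.21 ± 0.14, adjusted p = 0.000186). Cyc1 (0.40), uqcrc2a (0.32) and uqcrc2b (0.42) were higher too, and uqcrc1 (-0.11) and uqcrfs1 (0.34) did not pass. In complex II sdhb (0.42) and sdhc (0.46) were higher, while sdha (-0.18) and sdhdb (0.35) did not pass. The markers of other cells summed to 161 to 292 CPM in Pachón and 315 to 612 CPM in surface libraries of 300um, with 1 of 24 tested higher and 5 lower in Pachón and 4 to 9 of 38 at 0 in Pachón against 4 to 7 in surface libraries; 2 of 7 oocyte markers were higher in Pachón. Among the markers of other cells, skeletal muscle genes gave 41.7 to 59.6 CPM in Pachón and 114 to 150 CPM in surface libraries. Most reads of the skeletal muscle list came from ATP2A1 alone, with 3661 over all libraries of 300um. Next were atp2a1 with 295 and mybpc2a with 203. The part of either marker list in the members' difference was not tested. Complex I had 22 of 46 tested genes higher and 1 lower in the same comparison, the mitochondrial ribosome 28 of 74 higher and 5 lower, and the assembly factors 3 of 31 higher and 2 lower.

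Against Molino, Pachón oocytes of 300um had 22 of 52 members higher, where 18.5% of all genes were higher, and 3 lower, where 15.9% were, with a median log2 fold change of 0.37. This comparison shares its Pachón libraries with the one against surface oocytes. With library totals, which move the median of all genes by -0.16, 14 were higher and 4 lower, in 1 fit of all 36 libraries 8 were higher and 2 lower, and without Molino 300um replicate 2 the calls numbered 15. Of the higher members 12 kept their call whichever of the 6 libraries was left out, and of the lower ones 1 did, sdhaf2. All 5 F1 genes were higher (0.50 to 0.72), as were cox4i1 (0.70 ± 0.10, adjusted p = 0.000502), cox5ab (0.82 ± 0.11, adjusted p = 0.000365), cox7c (0.96), COX5B (0.58), uqcrc1 (0.47), uqcrc2b (0.37), cyc1 (0.64), sdha (0.32), sdhb (0.43) and COX7A2L (0.48). The ring gene atp5mc3b had 525, 382 and 398 CPM in Pachón libraries, against 107, 215 and 139 CPM in Molino libraries (1.52 ± 0.24, adjusted p = 0.00133). Cox4i1l (-2.71), sdhaf2 (-0.78) and UQCRFS1 (-0.57) were the 3 lower members. Cox4i1l passed the filter on low counts through the Molino libraries alone. Cox7a1, among the 12 higher members kept, passed it through the Pachón libraries alone, so the calls of both are a description.

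Molino against surface oocytes of 300um gave 3 members higher and 4 lower, where 7.35% and 9.13% of all genes were; with library totals it was 6 and 4, and in 1 fit of all 36 libraries 2 and 1. Sdha had 97.3, 94.5 and 112 CPM in Molino libraries, against 148, 145 and 133 CPM in surface libraries (-0.50 ± 0.10, adjusted p = 0.00571). Uqcrc1 had 179.7, 168 and 201 CPM in Molino, against 301, 274 and 238 CPM in surface libraries (-0.58 ± 0.12, adjusted p = 0.00652). Both genes lay wholly below surface libraries. Both kept their call whichever of the 6 libraries was left out, and lost it in 1 fit of all 36 libraries. None of the 5 F1 genes was called, with log2 fold changes from -0.07 to 0.18. In Molino libraries of 300um the markers of other cells summed to 185 to 596 CPM, with 6 to 11 of 38 at 0. Skeletal muscle genes gave 10.4 to 17.4 CPM of that sum. Of 24 tested, 2 were higher and 3 lower in Molino than in surface oocytes, and 2 were higher and 2 lower in Pachón than in Molino, where 3 of 7 oocyte markers were higher as well. Their part in the members' differences was not tested.

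**Figure D4:**
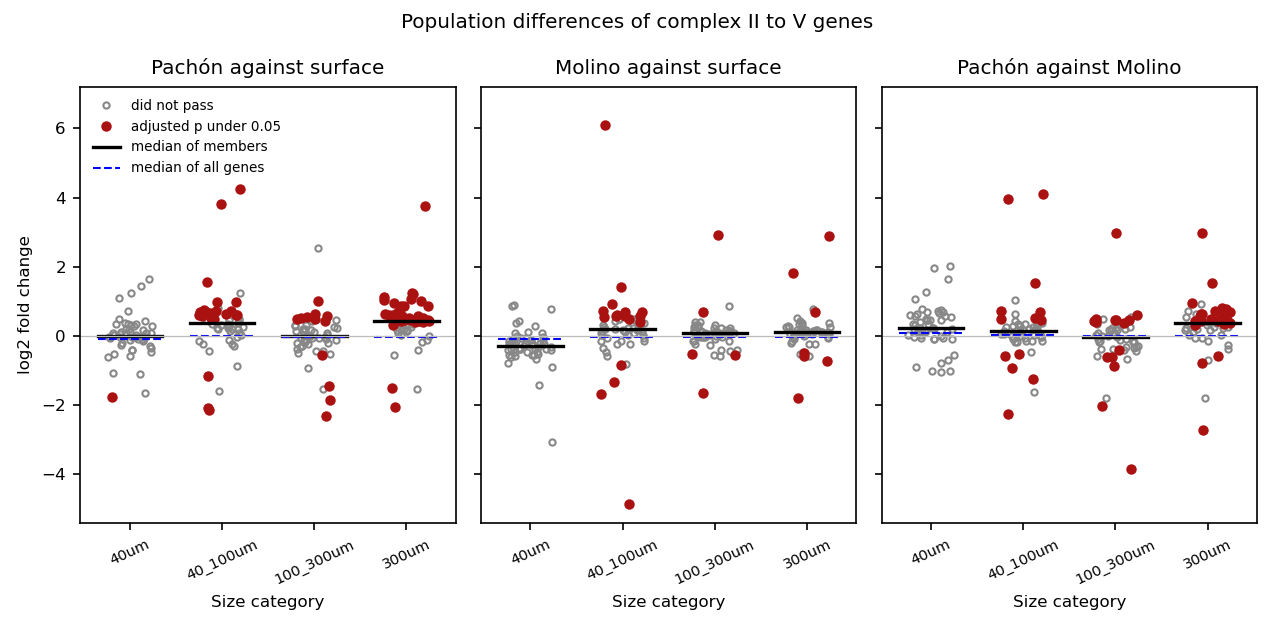
Log2 fold change of every tested member between populations (panels: Pachón over surface, Molino over surface and Pachón over Molino) at each size category, with filled points where the adjusted p was under 0.05, a black line at the members' median and a blue dashed line at the median of all genes. At 300um the members' median is 0.42 for Pachón over surface and 0.10 for Molino over surface, against -0.03 and -0.02 for all genes.

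At 40_100um both cave populations had members above surface oocytes. Pachón had 19 of 52 higher and 3 lower than surface oocytes, where 16.8% and 16.4% of all genes were, and Molino had 13 higher and 4 lower, where 14.1% and 15.4% were; these comparisons share the surface libraries. With library totals the splits were 14 and 5 for Pachón, and 9 and 6 for Molino with the median of all genes moved by -0.12. The Molino calls numbered 17 in all, 11 without Molino 40_100um replicate 1 and 8 without replicate 2, and in 1 fit of all 36 libraries 5 members were higher and 4 lower. At this size cox7a1, cox4i1l and cox8a passed the filter on low counts through the Pachón, the Molino and the surface libraries alone. Whichever of the 6 libraries was left out, 13 of the 19 higher members kept their call for Pachón and 5 of the 13 for Molino, atp5fa1, atp5f1b, atp5f1d, atp5mc1 and cox4i1l in both. For cox4i1l, and for cox7a1 among those kept for Pachón, this is a description, given how they passed the filter.

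Atp5fa1 had 4021, 3421 and 2667 CPM in Pachón and 2876, 3361 and 3019.7 CPM in Molino libraries of 40_100um, against 1602, 1543 and 1708 CPM in surface libraries. Its log2 fold change was 0.97 ± 0.15 for Pachón over surface (adjusted p = 0.000299) and 0.92 ± 0.15 for Molino over surface (adjusted p = 0.000455). Every cave library lay above every surface library. Atp5f1b was 0.73 and 0.58 and atp5f1d 0.71 and 0.72 higher in Pachón and Molino than in surface oocytes, on the log2 scale. Uqcrh was 0.98 and 0.70 higher and SDHAF4 changed by -1.15 and -1.34 in the same 2 comparisons. Among the other genes called in both were atp5mc1 (0.51 and 0.69), uqcrc2b (0.55 and 0.41) and cox5ab (0.65 and 0.48). Cox4i1 (0.70) and COX5B (0.69) were called in Pachón and not in Molino, where cox4i1 had 0.21, and both were higher in Pachón than in Molino itself (0.49 and 0.47). Sdhdb was higher in Molino than in surface oocytes (0.54).

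Pachón against Molino at 40_100um gave 8 higher and 5 lower, where 19.4% and 18.2% of all genes were. These numbers include cox8a (3.97), cox8b (1.53) and cox7c (0.72 ± 0.19, adjusted p = 0.00852) among the higher and UQCR11 (-0.58 ± 0.16, adjusted p = 0.0117) and UQCRFS1 (-0.93 ± 0.20, adjusted p = 0.00299) among the lower. Cox4i1l (-2.26) and sdhaf2 (-1.25) were lower as well. Without Pachón 40_100um replicate 1 the calls numbered 8 in all. The 38 markers of other cells summed to 186 to 247 CPM in Pachón, 42.3 to 137 CPM in Molino and 212 to 271 CPM in surface libraries, and 9 of 18 tested were higher in Pachón than in Molino while the others did not pass. Against surface oocytes 5 of the 18 were higher and 3 lower in Pachón, and 1 higher and 3 lower in Molino. Of the 38, 5 to 12 were at 0 in Pachón, 13 to 17 in Molino and 5 to 11 in surface libraries. Skeletal muscle genes gave 168 to 207 CPM of the sum in surface libraries, 72.7 to 109 in Pachón and 19.3 to 25.2 in Molino. Most of these reads came from ATP2A1 alone, with 5590 at this size, against 596 for atp2a1 and 194 for mybpc2a. The others had fewer, with 16 for ckma, 7 for mylpfa and 6 for tnnt3a. Stromal genes came to 64.9 to 98.2 CPM in Pachón and 15.9 to 34.0 CPM in surface libraries. Granulosa genes came to 20.4 to 32.2 and 9.24 to 18.4 CPM there. Macrophage and granulocyte genes were lower in Pachón, with 3.02 to 7.04 CPM against 7.79 to 19.2 CPM. The 7 oocyte markers summed to 4433 to 6509 CPM in Pachón, 3426 to 3734 CPM in Molino and 2847 to 3733 CPM in surface libraries. Of these 7, 3 were higher in Pachón than in surface oocytes, 1 was lower in Molino than in surface oocytes, and 2 were higher and 1 lower in Pachón than in Molino. The part of either marker list in the members' differences was not tested.

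At 100_300um Pachón had 8 of 52 higher and 4 lower than surface oocytes, where 10% and 9.86% of all genes were, and 3 higher and 2 lower in 1 fit of all 36 libraries; the calls numbered 6 without Pachón 100_300um replicate 1 and 7 without Pachón replicate 2 or 3 or surface replicate 2 or 3. Uqcrh had 84.6, 81.1 and 83.2 CPM in Pachón, against 47.7, 34.6 and 38.0 CPM in surface libraries (1.00 ± 0.17, adjusted p = 0.00278). Uqcrh, COX5B, sdhaf2 and cox7a2l kept their call whichever of the 6 libraries was left out. Atp5fa1 (0.64), COX5B (0.52), cox7a2a (0.57) and cox4i1 (0.45) were also higher and UQCRFS1 was lower (-0.55). Molino had 2 higher and 3 lower than surface oocytes, where 6.63% and 7.95% of all genes were, with sdha (-0.55 ± 0.14, adjusted p = 0.0233) and uqcrc1 (-0.52 ± 0.12, adjusted p = 0.0152) among the lower; the calls numbered 3 without Molino replicate 1 or 2, and 1 higher and 1 lower in 1 fit of all 36 libraries.

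Pachón against Molino at 100_300um gave 9 higher and 6 lower, where 13.5% and 11.5% of all genes were (25% in either direction), 7 and 7 without the 50 most abundant genes, and 1 and 2 in 1 fit of all 36 libraries. The higher ones include uqcrh (0.60), atp5fa1 (0.50), cox6c (0.46), cyc1 (0.45), cox4i1 (0.43), COX5B (0.39) and cox7a1 (2.97), which passed the filter on low counts through the Pachón libraries alone and was not called without it. The lower ones include cox4i1l (-3.83), atp5pd (-2.03), sdhaf2 (-0.87) and UQCRFS1 (-0.61). Leaving out any 1 of the 6 libraries lowered the 15 calls to between 2 (without Pachón replicate 3) and 9 (without Molino replicate 3): it was 3 without Pachón replicate 1, 7 without Pachón replicate 2, 5 without Molino replicate 1 and 4 without Molino replicate 2. Of the 15 calls 1, cox4i1l, stayed in all 6 of these fits. That gene passed the filter on low counts through the Molino libraries alone, so its call is a description.

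The 38 markers of other cells summed to 169 to 211 CPM in Pachón, 98.2 to 367 CPM in Molino and 318 to 515 CPM in surface libraries of 100_300um, with 6 to 9, 6 to 11 and 4 to 5 of them at 0. Of 24 tested, 3 were lower in Pachón than in surface oocytes, 2 were lower in Molino than in surface oocytes, and 2 were higher and 1 lower in Pachón than in Molino; the others did not pass. Skeletal muscle genes gave 36.7 to 53.4 CPM of these sums in Pachón, 10.7 to 13.5 CPM in Molino and 127 to 165 CPM in surface libraries. Here too most of their reads came from ATP2A1 (4591), against 382 for atp2a1 and 199 for mybpc2a. Of 7 oocyte markers 1 was higher in Pachón than in surface oocytes and 2 were higher in Pachón than in Molino. Their part in the members' differences at this size was not tested.

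At 40um, where replicates varied most, 1 member differed between populations, lower in Pachón than in surface oocytes, where 2.88% of all genes differed in either direction. Cox7a2l, a factor that joins complex III and IV into supercomplexes in mammals, had 3.61, 6.15 and 4.52 CPM in Pachón, against 17.6, 17.4 and 14.9 CPM in surface libraries (-1.77 ± 0.40, adjusted p = 0.0442). That call was lost when any 1 library of the comparison was left out and without the filter on low counts. In 1 fit of all 36 libraries 5 members were higher and 3 lower in Pachón than in surface oocytes. In that fit 2 were lower in Molino than in surface oocytes, and 8 were higher and 2 lower in Pachón than in Molino. Shares of all genes in that fit are not given here, so its counts are a description. The other counts were 0 higher in Pachón than in surface oocytes, where 2.02% of all genes were higher and 0.861% lower, 0 either way in Molino against surface oocytes (0.22% and 0.302%) and 0 either way in Pachón against Molino (1.87% and 1.31%, 3.18% together) by the edgeR test. At an unadjusted p under 0.05 these comparisons had 3 higher and 3 lower, 0 higher and 3 lower, and 3 higher and 2 lower. DESeq2 called 1 higher (cox8b) and 1 lower (cox7a2l) for Pachón over surface, where it called 1077 and 613 of all 15917 genes. For Molino over surface it called 1 lower (cox6b1), where 277 of all genes were called higher and 399 lower. Cox6b1 passed the filter on low counts at this size only with the surface and the Pachón libraries, so that call is a description. It had 11, 57 and 16 reads in surface and 1, 3 and 5 in Molino libraries. For Pachón over Molino DESeq2 called 2 higher (cox4i2 and cox8b), where 822 of all genes were called higher and 626 lower.

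A few members differed between populations at every size from 40_100um up. Sdhaf2 was lower in Pachón than in surface oocytes at all 3 sizes and lower in Pachón than in Molino at all 3. At 40_100um it had 5.89, 11.4 and 8.13 CPM in Pachón and 20.7, 19.2 and 17.4 CPM in Molino libraries, against 36.9, 34.2 and 31.3 CPM in surface libraries. At 300um it had 10.4, 12.5 and 10.6 CPM in Pachón and 17.5, 19.2 and 21.4 CPM in Molino, against 32.1, 31.3 and 32.2 CPM in surface libraries. The populations did not overlap at either size, with Pachón lowest, Molino between and surface oocytes highest. The log2 fold change of Pachón over surface was -2.09 ± 0.25 (adjusted p = 5.19e-05), -1.44 ± 0.26 (adjusted p = 0.00336) and -1.51 ± 0.15 (adjusted p = 7.12e-05) at 40_100um, 100_300um and 300um. For Molino over surface it was -0.84 ± 0.24 (adjusted p = 0.0174), -0.57 ± 0.25 (adjusted p = 0.16, not called) and -0.73 ± 0.14 (adjusted p = 0.00611).

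Sdhaf3 was higher in both cave populations than in surface oocytes at all 3 sizes. At 300um it had 30.1, 30.7 and 22.6 CPM in Pachón and 30.2, 33.8 and 28.8 CPM in Molino, against 18.2, 18.5 and 19.9 CPM in surface libraries. The log2 fold change was 0.61, 0.55 and 0.56 for Pachón over surface and 0.59, 0.69 and 0.70 for Molino over surface at 40_100um, 100_300um and 300um, all called. Of these 6 calls, the one for Molino at 100_300um was kept whichever library was left out, and each of the others was lost in at least 1 such fit. At 300um no cave library reached down to the surface libraries.

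Cox7a2l was lower in both cave populations at all 3 sizes. At 300um it had 2.12, 3.06 and 2.43 CPM in Pachón and 3.82, 2.93 and 2.59 CPM in Molino, against 16.2, 5.08 and 10.4 CPM in surface libraries, which varied among themselves but stayed above every cave library. Its log2 fold change at 300um was -2.06 ± 0.44 for Pachón over surface (adjusted p = 0.0055) and -1.79 ± 0.44 for Molino over surface (adjusted p = 0.018). The Pachón calls at 100_300um and 300um were kept whichever library was left out, while that at 40_100um and the Molino calls at all 3 sizes were each lost in at least 1 such fit. A second copy, COX7A2L, was not called against surface oocytes at any of the 3 sizes. Since reads could be split between the copies, their sum was taken: at 300um it was 19.9 ± 2.502 CPM in Pachón and 15.6 ± 1.13 CPM in Molino, against 27.8 ± 5.33 CPM in surface oocytes (SD, n = 3 each). The summed copies of the Rieske protein, uqcrfs1 and UQCRFS1, came to 159 ± 15.1 CPM in Pachón and 155 ± 6.84 CPM in Molino, against 140 ± 21.3 CPM in surface oocytes at 300um.

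Called higher in Pachón than in surface oocytes at all 3 sizes were sdhaf3, uqcrh, cox4i1, COX5B, cox7a2a, atp5fa1 and atp5md, 7 of 53 members, while 16 were called at none of the 3. For Molino over surface sdhaf3 and cox4i1l were higher at all 3, cox7a2l was lower at all 3, and 34 were called at none. For Pachón over Molino cox4i1, COX5B, cox7a1 and atp5f1e were higher at all 3, sdhaf2, UQCRFS1 and cox4i1l were lower at all 3, and 20 were called at none. At each of these sizes cox7a1 passed the filter on low counts through the Pachón libraries alone and cox4i1l through the Molino libraries alone. The calls of these 2 genes are therefore a description. No member was called in opposite directions at different sizes in any of these 3 pairings, which share libraries with each other. Within a population, same-numbered libraries deviated together across sizes. The mean r was 0.44 for 100_300um and 40_100um and 0.53 for 300um and 100_300um. Calls of a member at the 3 sizes are therefore not independent repeats. Shares of all genes are given above for each size singly. They were not computed for calls at all 3 sizes or at none, so these counts are a description.

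**Figure D5:**
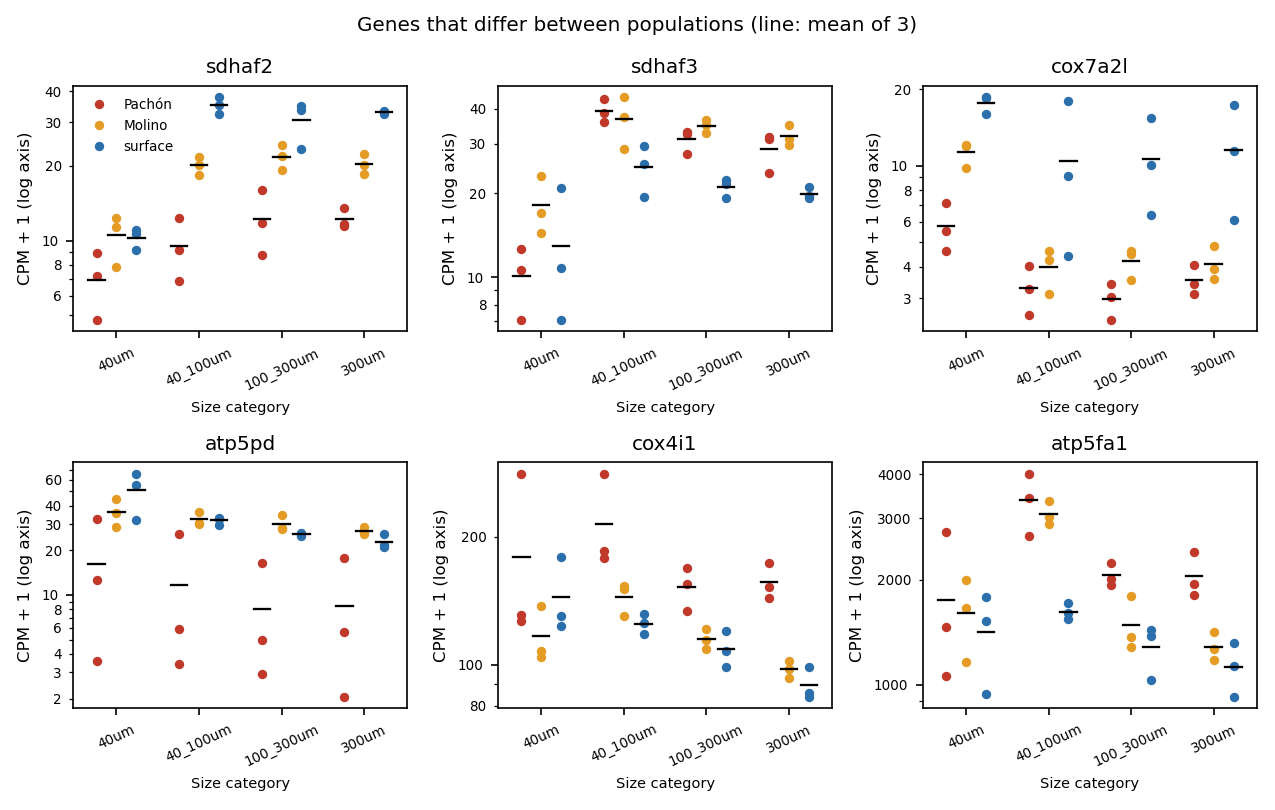
CPM + 1 on a log axis for sdhaf2, sdhaf3, cox7a2l, atp5pd, cox4i1 and atp5fa1 (panels) in each library (points), by size category and population. Sdhaf2 lies lowest in Pachón and highest in surface oocytes past 40um, and cox7a2l lies lowest in both cave populations.

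Atp5pd, subunit d of the outer stalk, varied widely among Pachón libraries. Pachón replicates 1, 2 and 3 had 2.58, 31.6 and 11.7 CPM at 40um, 2.44, 24.9 and 4.88 CPM at 40_100um, 1.91, 15.4 and 3.96 CPM at 100_300um, and 1.06, 16.7 and 4.60 CPM at 300um. Replicate 1 was lowest and replicate 2 highest at each of the 4 sizes. Molino libraries ranged from 24.7 to 43.4 CPM and surface libraries from 20.1 to 64.8 CPM over the 4 sizes. At 100_300um the log2 fold change was -1.85 ± 0.57 for Pachón over surface (adjusted p = 0.0499) and -2.03 ± 0.57 for Pachón over Molino (adjusted p = 0.0297). At 300um it was -1.53 for Pachón over surface and not called (adjusted p = 0.102), although every Pachón library lay below every surface library.

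Isoform genes with few reads separated the populations too. The cox4i1-like gene cox4i1l had 1.44, 1.42 and 1.79 CPM in Pachón and 6.37, 5.75 and 9.25 CPM in Molino, against 0, 0.244 and 0 CPM in surface libraries of 40_100um. The 3 populations did not overlap. Group totals were 29 reads in Pachón and 145 in Molino, against 2 in surface libraries, a ratio of 17.6 for Pachón over surface (95% counting interval 4.45 to 152) and 82.0 for Molino over surface (22.3 to 684). These intervals cover counting error only, and reads without molecular identifiers are not independent molecules. At 300um cox4i1l had 0.264, 1.71 and 0.895 CPM in Pachón and 6.997, 5.37 and 6.93 CPM in Molino, against 0.132, 1.84 and 0.628 CPM in surface libraries. Molino lay above both others. The gene passed the filter on low counts through the Molino libraries alone at each size from 40_100um up, so its differences there are a description. Cox4i2 was also higher in Molino than in surface oocytes at 40_100um (1.42 ± 0.49, adjusted p = 0.0426) and 300um (1.81 ± 0.33, adjusted p = 0.00398).

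Cox7a1 stood higher in Pachón oocytes. At 40_100um it had 3.02, 1.96 and 3.90 CPM in Pachón and 0.163, 0 and 0.272 CPM in Molino, against 0.264, 0.122 and 0 CPM in surface libraries. With 56 reads in Pachón and 3 each in Molino and surface libraries, the ratio was 22.6 for Pachón over surface (95% counting interval 7.36 to 113) and 20.0 for Pachón over Molino (6.51 to 99.97). At 300um it had 2.51, 2.32 and 3.45 CPM in Pachón and 0.318, 0.488 and 0.235 CPM in Molino, against 0.132, 0.282 and 0.157 CPM in surface libraries. Pachón lay above both others at both sizes. The gene passed the filter on low counts through the Pachón libraries alone at each size from 40_100um up, so its differences there are a description. Its usual counterpart cox7a2a was also called higher in Pachón than in surface oocytes at all 3 sizes.

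The subunit 8 isoforms differed by size as well as population. Cox8a had 5.75, 0.889 and 1.63 CPM in Pachón and 0.163, 0.151 and 0.136 CPM in Molino, against 7.91, 3.04 and 3.32 CPM in surface libraries of 40_100um. Molino held 3 reads and surface libraries 108, so Molino was 31.8-fold lower (95% counting interval 10.6 to 157). Cox8a passed the filter on low counts at that size through the surface libraries alone, so its difference between Molino and surface libraries there is a description. At 300um Molino had 2.704, 2.12 and 3.17 CPM and surface libraries 1.85, 2.82 and 2.83 CPM, which overlap. Cox8b had 17.7, 7.29 and 8.94 CPM in Pachón and 5.06, 2.72 and 3.27 CPM in Molino, against 3.29, 3.53 and 3.90 CPM in surface libraries of 40_100um (1.56 ± 0.39 for Pachón over surface, adjusted p = 0.00829). At 100_300um the Pachón and surface libraries of cox8b overlapped, and at 300um Pachón was again above them (1.24 ± 0.35, adjusted p = 0.0215).

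The change from 40um to 300um was compared between the populations as an interaction. For Pachón against surface oocytes 3 of 53 members passed, where 3.44% of all genes passed in that direction: cox7a2a (0.99 ± 0.29, adjusted p = 0.0334), cox7c (1.2 ± 0.36, adjusted p = 0.0377) and atp5f1e (0.95 ± 0.29, adjusted p = 0.0392). No member passed downwards, where 4.74% of all genes did. At an unadjusted p under 0.05, 11 members passed upwards and 2 downwards. DESeq2 called 5 upwards and 0 downwards, where it called 1069 and 1215 of all 18259 genes. For Molino against surface oocytes 0 members passed either way, where 0.4% and 0.356% of all genes did, with 3 upwards and 2 downwards at an unadjusted p under 0.05 and 0 by DESeq2. Cox7a2a had 47.1, 49.3 and 46.9 CPM in Pachón libraries of 300um and 36.9, 29.0 and 21.5 CPM at 40um, while surface libraries had 32.5, 37.1 and 32.2 CPM at 300um and 35.8, 53.1 and 35.2 CPM at 40um. Pachón libraries of cox7a2a were higher at 300um than at 40um without overlap, and surface libraries overlapped. Leaving out 1 library moved the 3 calls to 22 (without Pachón 40um replicate 1), 8 (without surface 40um replicate 2), 1 (without any 1 surface library of 300um) or 0 (without any 1 Pachón library of 300um or Pachón 40um replicate 2 or 3), and with only the compared libraries in the fit 0 members passed.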

How the data were processed

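RNA was sequenced from oocytes of 3 populations in 4 size categories, 3 libraries per group. STAR 2.7.10b and RSEM are named in the submitters' processing notes; the genome build was not given in the sources used here. Raw whole-number read counts per gene, as deposited by the authors, were used in all tests. Per the labels' protocols, libraries were directional and depleted of rRNA, and RNA input and PCR cycles varied. The deposited normalised table holds CPM-like signal values that equal edgeR's TMM-scaled CPM of these counts (largest relative difference 5.01e-15), so that scale was used for levels. Unassigned reads stayed out of library sizes: 20.5% in no gene, 12.6% multimapping and 9.59% unmapped on average. No column of per-sample values was left unused.

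Counts were tested with edgeR 4.0.16 (robust quasi-likelihood F test, TMM, filterByExpr with minimum count 10 and minimum total 15) in R 4.3.3 with limma 3.58.1, adjusted by Benjamini-Hochberg over all genes tested at a threshold of 0.05. Populations were compared in a fit of the 9 libraries of each size (15917, 14377, 15494 and 15214 genes in rising size). Size steps and interactions were tested in 1 fit of all 36 libraries (18259 genes). Ratios of copies used log2 CPM with a prior count of 2. The tests across genes were tested on simulated data.

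The members and gene lists were chosen with earlier results of these data known. Named in each comparison are the 4 members with the largest change each way past the threshold and the anchors sdha, sdhb, sdhc, sdhdb, uqcrc1, uqcrc2a and uqcrc2b, uqcrfs1 and UQCRFS1, cyc1, cox4i1, cox4i2, cox5aa and cox5ab, COX5B, cox6a1, cox7a1, cox7a2a and COX7A2, cox8a, cox8b, atp5fa1, atp5f1b, atp5mc1 and atp5po; other members named were chosen after their values were seen.

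Replicate numbers are shared by all groups. Within a population, libraries with the same number deviated together over genes in all 9 pairs of 40_100um and 40um (r 0.13 to 0.40) and all 9 of 300um and 100_300um (0.24 to 0.72), in 8 of 9 pairs of 100_300um and 40_100um, and across populations in 15 of 36 pairs. The numbers were therefore taken to pair libraries in the first and last size steps, where the source of the pairing is these deviations and not the labels. The mean r was 0.31, 0.44 and 0.53 for the steps in rising size, so the middle step, left unpaired, did not deviate less on average. The edgeR tests of size steps and interactions used no replicate block, which was run as an alternative.

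Alternatives were DESeq2 1.42.0 (size factors and Wald test), library totals, no filter, leaving out the 50 most abundant genes, a replicate block, 1 fit of all 36 libraries for populations, only the compared libraries for interactions, a prior count of 0.5, and leaving out each library. Leaving out the 5 libraries whose summed markers of other cells passed 1.5 times their group's median was chosen after seeing the data, as was a paired exact test of the ratios of copies. Figures were drawn with matplotlib 3.10.9 and tables joined with pandas 2.3.3.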

Additional observations from a re-analysis of the deposited data

Results flagged for a closer look

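The change from 40um to 300um differed between Pachón and surface oocytes by the interaction test for 3 of 53 members (edgeR quasi-likelihood test with Benjamini-Hochberg adjustment). Of all genes 3.44% passed in that direction and 8.19% in either. Each member is given as the difference of the log2 changes, Pachón minus surface. It was 0.99 (adjusted p = 0.0334) for cox7a2a, a subunit 7a gene of complex IV. It was 1.2 (adjusted p = 0.0377) for cox7c, another small subunit of complex IV. Cox7c had 63.3, 51.8 and 50.7 CPM at 300um and 53.9, 23.3 and 27.9 CPM at 40um in Pachón, while surface libraries had 29.0, 25.4 and 24.8 CPM at 300um and 34.7, 32.5 and 49.2 CPM at 40um. It was 0.95 (adjusted p = 0.0392) for atp5f1e, the epsilon subunit of the F1 head. Atp5f1e had 81.8, 69.8 and 67.7 CPM at 300um and 60.1, 47.0 and 49.7 CPM at 40um in Pachón, while surface libraries had 39.98, 42.4 and 38.5 CPM at 300um and 76.3, 42.5 and 47.6 CPM at 40um. For atp5f1e the Pachón libraries of 300um lay above those of 40um, and the surface libraries of 300um lay below those of 40um. None of the 3 calls stayed in all 12 fits that leave out 1 library, and with only the compared libraries in the fit 0 members passed.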

How the results depend on the processing

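Of the called values of members named by the rule, 0 changed direction under the alternatives run, while counts of calls did move. With library totals, 2 members were higher and 13 lower at 100_300um than at 40_100um, and 6 differed between Pachón and surface oocytes in the change from 40um to 300um. Without the filter, 35 members were higher at 40_100um than at 40um, and 0 differed between Pachón and surface oocytes at 40um. With a replicate block, 5 differed in that change for Pachón and 1 differed between Pachón and Molino at 40um; it changed no other count of calls by over 1.5 times. With the DESeq2 Wald test, 5 differed in the change from 40um to 300um for Pachón and 1 in the change from 40_100um to 100_300um for Molino. At 40um 2, 1 and 2 differed between Pachón and surface, Molino and surface, and Pachón and Molino. The numbers of all genes that DESeq2 called stand beside these comparisons above. Without the libraries with raised markers of other cells, 1 differed in the change from 40um to 300um for Pachón and 20 differed between Pachón and surface oocytes at 300um. With only the compared libraries, 0 differed in the first of these. In 1 fit of all 36 libraries the calls numbered 8, 2 and 10 at 40um (Pachón against surface, Molino against surface, Pachón against Molino). They numbered 5, 2 and 3 at 100_300um and 13, 3 and 10 at 300um, and 9 for Molino against surface at 40_100um. Shares of all genes in that fit are not given, so its counts are a description. The ratio of cox6b1 to cox6b2 at 300um over 100_300um was 1.67 and no longer called with a prior count of 0.5. With the replicate block as paired differences, ratios newly called were those of COX7A2L to cox7a2l (1.44), cox7a1 to cox7a2a (-1.44) and atp5mc1 to atp5mc3b (0.30) at 40_100um over 40um, and cox5aa to cox5ab (-0.18) and atp5mc1 to atp5mc3b (0.14) at 300um over 100_300um.

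Leaving out 1 library gave 18 to 37 higher and 7 to 9 lower at 40_100um than at 40um, 0 to 1 higher and 22 to 36 lower at 100_300um than at 40_100um, and 0 to 0 either way at 300um. Pachón against surface gave 0 to 0, 15 to 23, 6 to 13 and 15 to 35 calls in rising size, Molino against surface 0 to 0, 8 to 21, 3 to 5 and 5 to 8, and Pachón against Molino 0 to 1, 8 to 13, 2 to 9 and 15 to 25. The change from 40um to 300um gave 0 to 22 calls for Pachón and 0 to 1 for Molino, and that from 40_100um to 100_300um 0 to 0 for each. Of 1362 values of named members in these fits, 1102 kept their call, 260 lost it and 0 reversed. The causes of these moves were not tested, other than that fits with fewer libraries hold less replication. Depth limits the scarce isoforms: cox4i1l, cox7a1, cox8a and cox6b1 each had 2 to 3 reads in at least 1 group at 40_100um, and with 3 libraries per group and the spread at 40um small differences there are not detectable.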

Other observations

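Subunit 4 of complex IV has 3 genes among the members. At 300um their summed level was 161 ± 15.3 CPM in Pachón and 110.3 ± 6.44 CPM in Molino, against 91.3 ± 8.99 CPM in surface oocytes (SD, n = 3 each). The log2 ratio of cox4i1l to cox4i1 averaged -7.13 ± 1.04 in Pachón and -3.86 ± 0.15 in Molino, against -6.54 ± 1.06 in surface libraries of 300um, and the 3 Molino libraries lay above all others of that size. With 3 libraries against 3 an exact two-sided permutation test cannot go below 0.10, so these ratios were not tested between populations. The subunit 6b genes cox6b1 and cox6b2 together came to 55.1 ± 2.83 CPM in Pachón and 57.8 ± 3.91 CPM in Molino, against 49.5 ± 4.64 CPM in surface oocytes of 300um. The cave libraries of both populations lay above the surface libraries in that sum.

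Of 20 tested regulators of respiratory genes and mitochondrial DNA, 2 were higher and 4 lower in Pachón than in surface oocytes of 300um, where 15.9% of all genes were higher and 16.5% lower. The higher ones were ssbp1, a DNA-binding protein of mitochondria (log2 fold change 0.64), and POLG2, the accessory subunit of the mitochondrial polymerase (0.83). The lower ones were tfb1m, a mitochondrial rRNA methyltransferase (16.6 CPM in Pachón and 38.0 CPM in surface oocytes, -1.19 ± 0.16, adjusted p = 0.000558 in the edgeR quasi-likelihood test), gabpb1 (-1.58), yy1b (-0.64) and POLG (-0.62). Of the 31 tested assembly factors, set against the same shares, the 3 higher ones were cox10, which makes heme O for complex IV (144 CPM in Pachón and 69.5 CPM in surface oocytes, 1.06 ± 0.15, adjusted p = 0.000648 in the same test), coa5 (1.43) and TMEM70 (0.66). The 2 lower ones were sco2 (-1.15) and tmem242 (-1.08). All genes of both lists that passed are named here.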
